A study of Mus musculus with 24 samples.

Results

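The response of the prefrontal cortex (PFC) to dexamethasone (DEX) was followed in mice with a passive coping strategy (PS). DEX is a synthetic glucocorticoid. The comparison holds 8 of the 24 libraries of the series, 4 from saline-treated and 4 from DEX-treated PS animals, which carry the label dep1 in the deposited table. All are bulk RNA-seq libraries of male C57BL/6 mice 10–12 weeks of age, with 1 mouse per library and no animals pooled. Both PS groups had been exposed to 30 days of social defeat by CD1 males and had been assigned to PS by clustering of their behavior shortly before the end of stress, so that stress and phenotype are shared by all 8 animals. Injection took place 24 h after the last session, with 2 mg/kg DEX or with saline alone, and tissue was taken 6 h later. The other groups used for comparison were unstressed control mice, housed alone for 5 days, and defeated mice with an active coping strategy (AS), each with 4 saline and 4 DEX animals and the same dose, time and age. Phenotype was assigned and not induced, and the dissected block covered secondary motor, cingulate, orbital, prelimbic and infralimbic cortex together, so a value is an average over all cells of that block. All 14074 genes of the table were tested, each on the scale of log2(normalized count + 1).

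DEX enters cells and binds the glucocorticoid receptor, Nr3c1, a ligand-activated transcription factor held in the cytosol by heat shock proteins and immunophilins. The occupied receptor moves to the nucleus and binds glucocorticoid response elements, where it raises the transcription of genes such as Fkbp5, Tsc22d3, Sgk1 and Per1, several of which limit the hormone's own action. It also lowers the transcription of many immune genes, largely through other transcription factors. In the forebrain the receptor is present in neurons, astrocytes, microglia and the cells of blood vessels. The mineralocorticoid receptor, Nr3c2, binds corticosterone with higher affinity and DEX poorly.

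Values are listed below in the order saline mice 2, 28, 62 and 68, then DEX mice 6, 34, 52 and 56. The reads assigned to genes ran from 21493398 to 59439645 in the saline animals and from 22253648 to 32055506 in the DEX animals, against 21121869 to 59439645 over all 24 libraries. The excitatory neuron genes Slc17a7 and Camk2a were high in every PS library, at 41898 to 49980.1 and 111510.0 to 140779.7 normalized counts. A set of 3 libraries stood apart from the other 5, though no single measure set apart all 3. The first principal component of the 8 libraries (37.1% of the variance, over the 12019 genes that averaged 100 normalized counts or more) gave DEX mouse 34 a loading of -0.807 and the other 7 libraries loadings of -0.153 to 0.341. This library had the lowest summed level of the 16 leptomeningeal fibroblast markers tested, 19732 normalized counts. It also had 2021 normalized counts of Cdhr1 and 660.1 of Doc2g, genes known from olfactory bulb neurons, and these genes were chosen after their values were seen. Saline mouse 2 had 826.9 of Cdhr1 and 243.4 of Doc2g, while the other 6 PS libraries had at most 102 and 37.1. High counts were not confined to PS animals. Among the control and AS libraries the highest value was 2653 for Cdhr1 and 594 for Doc2g. Saline mice 2 and 62 were set apart by the short RNA gene Gm24270, with 3449 and 1889 normalized counts against 157 to 436 in the other 6. Counts of called genes are therefore given below, for each list with a call, also without saline mice 2 and 62 and DEX mouse 34. Of the 8 libraries, these saline mice had the highest and this DEX mouse the lowest level of the class II and interferon lists described below. Leaving them out thus shrinks the falls of these lists by the choice itself, and fewer animals remain.

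DEX changed 755 of 14074 genes in PS animals (limma, adjusted p under 0.1), or 5.36% of those tested. Of these, 386 rose (2.74%) and 369 fell (2.62%). These shares over all genes are the measure for the counts of every gene list below. The changes were mostly modest, with a median log2 fold change of 0.44 among the genes that rose and -0.47 among those that fell, against 0.00 over all genes. A change of more than 1 on the log2 scale was reached by 38 genes that rose and 19 that fell. Protein-coding genes made up 369 of the rises and 341 of the falls, and long noncoding RNA genes 9 and 25. The ranges of the 4 DEX and the 4 saline libraries were separate for 1423 genes, 10.1% of all tested, and for 652 of the 755 called genes. Among the genes that rose, DEX mouse 52 was the DEX library nearest to saline for 127 of 386 and DEX mouse 56 for 70. Among those that fell the order was the other way round, with DEX mouse 56 nearest for 140 of 369 and DEX mouse 52 for 92. Without saline mice 2 and 62 and DEX mouse 34, 318 genes were called, 187 up and 131 down, and 300 of them were among the 755. The number of falls was the part most open to single libraries, with 218 without saline mouse 2, 241 without saline mouse 28 and 235 without DEX mouse 6.

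**Figure D1:**
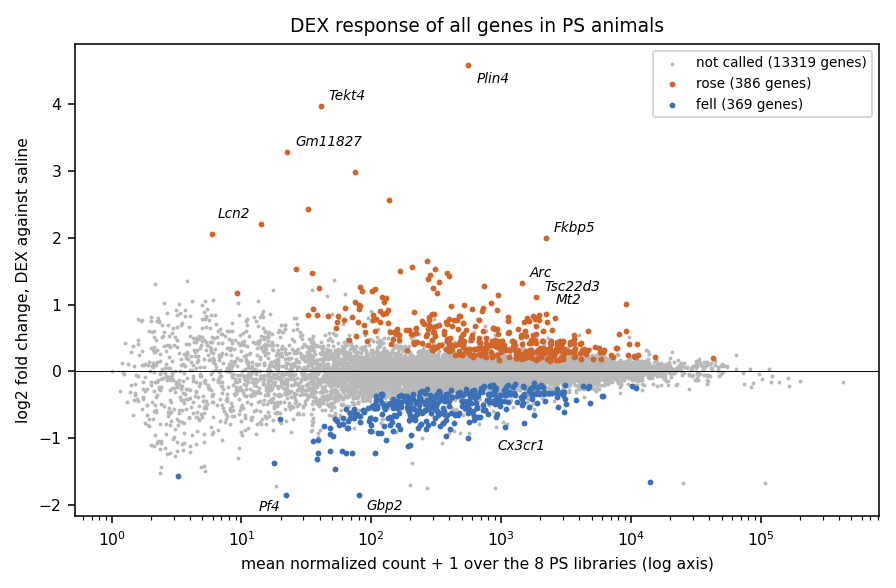
DEX response of all 14074 genes in PS animals. The horizontal axis is the mean normalized count + 1 over 8 libraries (log axis) and the vertical axis the log2 fold change of DEX against saline, with 386 genes that rose in orange, 369 that fell in blue and the rest in gray. The largest rises reach 4.59 and the named falls -1.86.

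The strongest rise was that of Plin4, which encodes perilipin 4, a protein of the lipid droplet surface (chr17:56100591-56109803, mm10). Plin4 had 48.4, 24.8, 55.0 and 54.7 normalized counts in the saline animals and 1197, 987, 1082 and 1034 in the DEX animals. Every DEX library was far above every saline library, and the log2 fold change was 4.59 ± 0.30 (SE), adjusted p = 7.11e-10 (limma). Tekt4, a tektin of cilia and flagella (chr17:25454615-25476602), had 3.82, 3.74, 2.56 and 5.26 normalized counts in the saline animals and 66.1, 103, 54.6 and 80.5 in the DEX animals, a log2 fold change of 3.98 ± 0.45 (SE), adjusted p = 4.14e-06. Its saline level rests on few reads, so that the added count of 1 lowers the fold. Among noncoding genes, Gm11827 (chr4:11122805-11126998) went from 3.82, 0.936, 3.84 and 5.26 normalized counts with saline to 36.7, 38.8, 30.4 and 53.3 with DEX, and 9330121J05Rik (chr3:62337524-62340532) from 14.0, 22.9, 19.2 and 9.46 to 124, 159, 106 and 140.4. Their log2 fold changes were 3.29 ± 0.36 and 2.99 ± 0.21, with adjusted p = 1.96e-06 and 3.50e-09 (limma). Gm19439, an unverified transcript, rose by 2.56 and the membrane protein gene Tmem52 by 2.43 (adjusted p = 2.36e-08 and 1.73e-05). In all of these the saline and DEX animals did not overlap.

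The remaining genes among the 15 largest rises had log2 fold changes of 1.45 to 2.00. They included the phospholipase Pla2g3 (1.66), the stress kinase Map3k6 (1.56), the small membrane protein Smim3 (1.54), the noncoding Gm27252 (1.53), the secreted leucine-rich glycoprotein Lrg1 (1.51), the protease inhibitor Spink8 (1.48), the arrestin-domain protein Arrdc2 (1.47) and the desmosomal plakophilin Pkp2 (1.45). Their adjusted p ran from 5.21e-09 to 0.00269 (limma). Map3k6 had 98.1, 88.9, 115 and 114 in the saline animals and 279, 291, 307 and 358 in the DEX animals (normalized counts). Lrg1, encoded next to Plin4 at chr17:56119678-56122001, had 59.9, 78.1, 113 and 94.6 in the saline animals and 205, 307, 244 and 219.8 in the DEX animals. All 15 rises were also called in control and in AS animals (limma). Of the 15, only the call of Spink8 was lost without the 3 libraries that stood apart (adjusted p = 0.108).

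**Figure D2:**
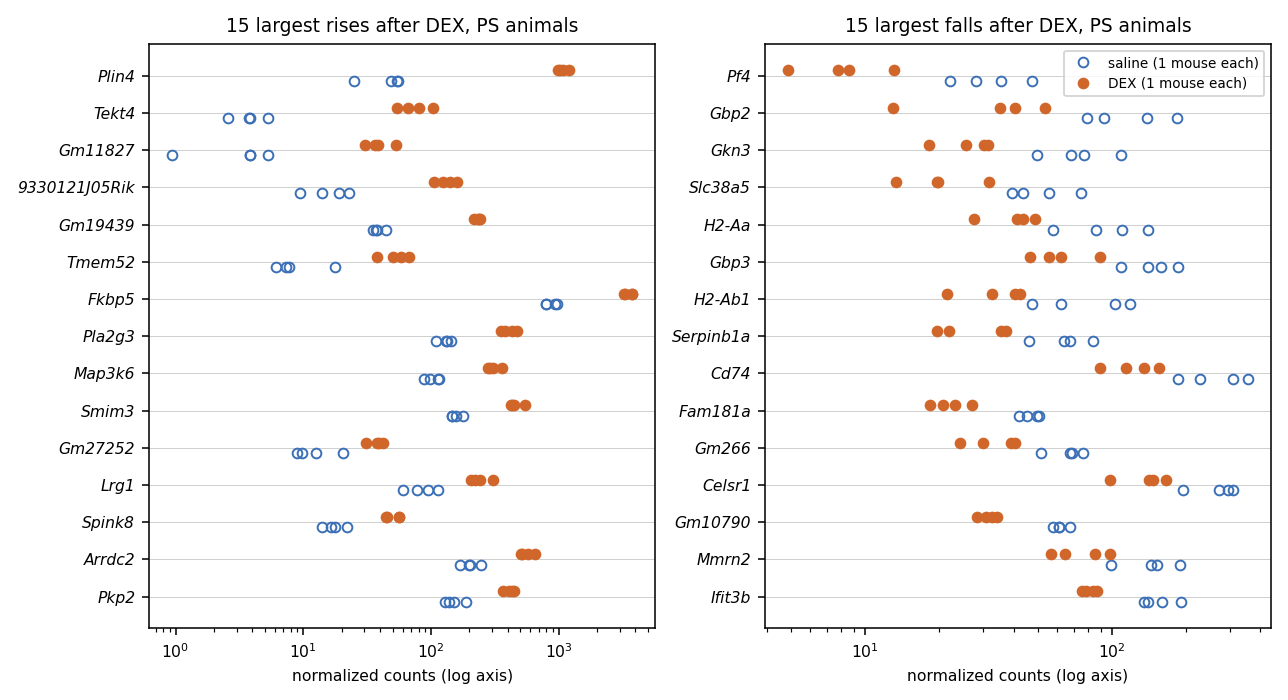
Normalized counts (log axis) of the 15 genes with the largest rises and the 15 with the largest falls after DEX, in each PS library. Open circles are the 4 saline animals and filled circles the 4 DEX animals. The circles of the 2 treatments do not overlap for any of the 30 genes, which the choice of genes required.

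Genes known to be induced by glucocorticoids rose as a group. Of 29 genes tested from a list of 30 such genes, 21 rose and none fell, a share of 72.4% against 5.36% of all genes, with a median log2 fold change of 0.64 against 0.00 over all genes. The list was put together with earlier results of these libraries known, so its direction is not independent evidence. Fkbp5, which encodes an immunophilin that lowers the hormone affinity of the receptor (chr17:28399094-28517527), had 938, 803, 979 and 803 normalized counts in the saline animals and 3271, 3774, 3316 and 3765 in the DEX animals, a log2 fold change of 2.00 ± 0.11 (SE), adjusted p = 1.35e-11 (limma). Tsc22d3 encodes GILZ, a mediator of anti-inflammatory glucocorticoid actions, and had 1210.4, 1085, 1324 and 1121 in the saline animals and 2533, 2626, 2565 and 2512 in the DEX animals. Sgk1, a kinase that regulates ion channels and transporters, had 1119, 1068, 1344 and 1091 in the saline animals and 1994, 1848, 2236 and 1906 in the DEX animals. The log2 fold changes were 1.11 ± 0.09 and 0.79 ± 0.10 (adjusted p = 2.20e-08 and 2.86e-05). No DEX library of these 3 genes reached down to a saline library, as the labels of the 8 animals require.

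Other members of the list with clear rises were Hif3a, a hypoxia-inducible factor subunit (219 ± 62.2 normalized counts (SD, n = 4) with saline and 574 ± 79.5 with DEX, log2 fold change 1.43), the sulfotransferase Sult1a1 (1.34), the cell cycle inhibitor Cdkn1a (1.14), the transcription factors Cebpd (0.99), Zbtb16 (0.77), Klf15 (0.60) and Klf9 (0.55). Klf9 was the most abundant of these, with 6605 ± 192 normalized counts (SD, n = 4) with saline and 9686 ± 497 with DEX. The iron-binding protein Lcn2 had the second largest log2 fold change of the list, 2.21 ± 0.57, on low counts of 2.55, 5.15, 1.28 and 6.31 in the saline animals and 18.4, 10.3, 15.8 and 44.6 in the DEX animals (adjusted p = 0.0256, limma). It was the member that varied most among DEX animals, and its call was lost without DEX mouse 56 (0.103) or saline mouse 62 (0.106). Per1, a clock gene with a known glucocorticoid response element, had 3319, 3319, 3684 and 2876 in the saline animals and 4118, 4107, 3645 and 4359 in the DEX animals, and its log2 fold change was 0.30 ± 0.08 (SE), adjusted p = 0.0403. DEX mouse 52 lay below saline mouse 62, so the groups overlapped, and the call of Per1 was lost without DEX mouse 56 (0.124), DEX mouse 6 (0.103) or saline mouse 68 (0.165). The number of members called stayed between 19 and 22 over all alternatives, and was 19 without the 3 libraries that stood apart, where Lcn2 had adjusted p = 0.34.

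The receptors themselves fell. Nr3c1 had 2934, 3158, 2952 and 3047 in the saline animals and 2439, 1861, 2937 and 2158 in the DEX animals, a log2 fold change of -0.38 ± 0.10 (SE), adjusted p = 0.0296 (limma). DEX mouse 52 stayed near the saline level while DEX mouse 34 was the lowest, and the call was lost without DEX mouse 34 (0.135). Nr3c2 fell in all 4 DEX animals, from 1088, 1197, 1158 and 994 to 915, 834, 887 and 829 (-0.35 ± 0.09 (SE), adjusted p = 0.0244). Of the 16 receptors and chaperones tested, 1 rose (Fkbp5) and 2 fell (Nr3c1, Nr3c2), and the remaining 13 did not pass. The chaperones Hsp90aa1 and Fkbp4 had log2 fold changes of 0.01 and -0.04. Of 19 circadian clock genes, 1 rose and 2 fell. Dbp, a clock output transcription factor, had 3836, 3430.0, 3992 and 3060.0 in the saline animals and 2523, 3039, 2509 and 2677 in the DEX animals (-0.41 ± 0.09 (SE), adjusted p = 0.0048), and the repressor Bhlhe41 fell by 0.33 on the log2 scale (adjusted p = 0.011). Both were lower in every DEX animal than in every saline animal, while Per1, described above, moved the other way. Without the 3 libraries that stood apart, the adjusted p of Nr3c1, Nr3c2 and Bhlhe41 was 0.315, 0.378 and 0.44, and 1 receptor or chaperone gene and 3 clock genes were called.

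Genes of energy metabolism changed in both directions, with more called rises than called falls. Of 32 genes of lipid storage and fatty acid use, 7 rose and 1 fell (25.0% called against 5.36% of all genes, median log2 fold change 0.04). Of all 32, 17 had a positive and 15 a negative log2 fold change. Besides Plin4 these included 2 lipases of triglyceride breakdown, Pnpla2 and Lipe. Pnpla2 had 556, 517, 553 and 549.8 in the saline animals and 1098, 1272, 937 and 1163 in the DEX animals, a log2 fold change of 1.03 ± 0.10 (SE), adjusted p = 7.17e-07 (limma). Lipe rose by 0.44 and the mitochondrial uncoupling protein Ucp2 by 0.76 ± 0.14 on the log2 scale (adjusted p = 0.0141 and 0.00115). Gpd1, Lpin1 and Pdk2 rose by only 0.21 to 0.26, and each of these calls was lost without some libraries. That of Gpd1 was lost without any 1 of saline mice 2 and 62 and DEX mice 6, 34, 52 and 56 (adjusted p 0.113 to 0.339), that of Lpin1 without any 1 of saline mice 28 and 68 and DEX mice 6, 52 and 56 (adjusted p 0.111 to 0.238), and that of Pdk2 without any 1 of saline mice 2, 28, 62 and 68 and DEX mice 34 and 52 (adjusted p 0.105 to 0.27). Gpd1 had a log2 fold change of 0.09 (adjusted p = 1.0) without the 3 libraries that stood apart. Lipoprotein lipase, Lpl, fell from 427, 459.9, 407 and 408 to 321, 306, 282 and 341 (adjusted p = 0.0338), and its call was lost without DEX mouse 52 (0.109) or saline mouse 28 (0.113). Without DEX mouse 52, 4 of the 8 calls of this list were left. Without the 3 libraries that stood apart, 5 genes of the list were called, not all of them among the 8. The calls of Lipe, Lpl and Pdk2 were then lost as well as that of Gpd1 (adjusted p = 0.326, 0.263 and 0.71 for the first 3, limma).

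Of 28 genes of insulin, FoxO and mTOR signaling, 4 rose and 2 fell. Ddit4, an inhibitor of mTOR induced by glucocorticoids, had 645, 664, 734 and 653 in the saline animals and 1158, 1240.1, 870.5 and 977 in the DEX animals (0.64 ± 0.10 (SE), adjusted p = 1.80e-04, limma). Sesn1, another restraint on mTOR, rose by 0.46 ± 0.06 (adjusted p = 4.33e-05). The adaptor Irs2 and the receptor Igf1r rose by 0.42 and 0.30 on the log2 scale (adjusted p = 0.0386 and 0.0272), and the call of Irs2 was lost without saline mouse 68 (0.111). The kinase Akt2 fell in each DEX animal, from 3161, 3591, 3203 and 3433 to 2630.0, 2643, 2503 and 2677 (-0.36 ± 0.07 (SE), adjusted p = 0.00248), and Pik3r3, a regulatory subunit of PI3 kinase, fell by 0.25, a call lost without any 1 of saline mice 28 and 68 and DEX mice 6, 34 and 56 (adjusted p 0.116 to 0.194). In cholesterol synthesis and uptake, 2 of 25 genes rose, which is 8.00% against 5.36% of all genes. Fdft1, the squalene synthase, had 2524, 2366, 2626 and 2503 in the saline animals and 3459, 3905, 3192 and 3235 in the DEX animals (0.46 ± 0.08 (SE), adjusted p = 5.31e-04). The cholesterol exporter Abcg1 rose by 0.21, a call lost without any 1 of saline mice 2, 28 and 62 and DEX mice 6, 34 and 52 (adjusted p 0.124 to 0.225). The metal-binding metallothioneins Mt1 and Mt2 rose by 0.55 and 0.86 (adjusted p = 0.0183 and 6.78e-04), while the third, Mt3, had a log2 fold change of 0.04. Among 22 heat shock proteins 1 rose, so that 4.55% were called against 5.36% of all genes. This was Dnajb5 (0.28), a call lost without any 1 of saline mice 2 and 62 and DEX mice 34 and 56 (adjusted p 0.107 to 0.165). Without the 3 libraries that stood apart, 4 genes of insulin, FoxO and mTOR signaling, 1 cholesterol gene, 2 metallothioneins and no heat shock protein were called.

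Immediate early genes, which neurons transcribe within minutes of activity, were partly higher. Of 22 tested, 4 rose and 2 fell (27.3%), with a median log2 fold change of 0.19. Arc, an activity-regulated protein of the synapse (chr15:74669083-74672570), had 649.8, 1014, 895 and 773 normalized counts in the saline animals and 1848, 2146, 2044 and 2234 in the DEX animals, a log2 fold change of 1.33 ± 0.21 (SE), adjusted p = 2.30e-04 (limma). All 4 DEX values were well above the highest saline value. Nr4a1, an orphan nuclear receptor, rose by 0.47 (adjusted p = 0.0255) and the growth factor-induced gene Ier2 by 0.54 ± 0.14 (adjusted p = 0.03, lost without saline mouse 2 (0.113)). Junb, a subunit of AP-1, rose by 0.58 ± 0.19 with adjusted p = 0.0873. Its call was close to the limit, did not pass in edgeR (adjusted p = 0.11) and was lost without any 1 of saline mice 2, 28, 62 and 68, DEX mice 6, 34 and 56, saline control mouse 107 and saline AS mouse 14 (adjusted p 0.102 to 0.267). Fos and Egr1 had log2 fold changes of 0.63 and 0.33 and did not pass (adjusted p = 0.391 and 0.245). The 2 falls were those of Bdnf and Nptx2, both made by active pyramidal neurons. Bdnf, a neurotrophin, had 975, 1159.9, 925 and 1160.5 in the saline animals and 724, 703, 685 and 894 in the DEX animals (-0.49 ± 0.13 (SE), adjusted p = 0.0304), lost without saline mouse 28 (0.109). Nptx2, a synaptic pentraxin, fell by 0.35 (adjusted p = 0.0978), a call lost without any 1 of saline mice 2, 28 and 68, DEX mice 6 and 52, saline control mice 107 and 109, DEX control mice 108 and 122, saline AS mice 8 and 14 and DEX AS mice 38 and 42 (adjusted p 0.103 to 0.31). Without saline mouse 2 or saline mouse 28, 3 of the 6 calls were left, and without the 3 libraries that stood apart 3.

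Among 18 genes of MAP kinase feedback, 3 rose and none fell. Rasd1, a Ras-like GTPase also called dexamethasone-induced Ras, had 85.4, 90.8, 79.3 and 68.3 in the saline animals and 183, 184, 129.9 and 206 in the DEX animals (1.09 ± 0.17 (SE), adjusted p = 2.05e-04, limma). The MAP kinase phosphatase Dusp1 had 363, 418, 468 and 399 in the saline animals and 605, 699.7, 534 and 591 in the DEX animals (0.56 ± 0.13 (SE), adjusted p = 0.00992). Dusp5 rose in all DEX animals, from 219, 211, 191 and 179.8 to 261, 490.3, 266 and 394, most in DEX mouse 34, and its call (adjusted p = 0.0382) was lost without DEX mouse 34 (0.166), DEX mouse 56 (0.108) or saline mouse 68 (0.102). Without the 3 libraries that stood apart the adjusted p of Dusp1 was 0.181, and 1 of the 18 genes was called.

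Receptors and channels of neurons were called in small numbers. Of 9 serotonin receptor genes, 1 rose (11.1% called against 5.36% of all genes). Htr1a, the inhibitory 1A receptor, had 389.9, 426, 399 and 400.5 in the saline animals and 567, 544, 677 and 519 in the DEX animals, a log2 fold change of 0.51 ± 0.13 (SE), adjusted p = 0.0234 (limma). Of 16 adrenergic, dopamine and histamine genes, 2 rose and 1 fell. Adra2a, the inhibitory alpha-2A adrenoceptor, had 455, 338, 393 and 225 in the saline animals and 587, 623, 592 and 638 in the DEX animals (0.83 ± 0.16 (SE), adjusted p = 0.00206). The DEX values were tightly grouped, while saline mouse 68 was the lowest of the saline animals. Adra1b rose by 0.32 and the monoamine oxidase Maoa fell by 0.22 on the log2 scale. Their calls were narrow (adjusted p = 0.0652 and 0.0589), that of Adra1b being lost without any 1 of saline mice 2, 28 and 62 and DEX mice 34, 52 and 56 (adjusted p 0.102 to 0.232), and that of Maoa without any 1 of saline mice 2, 28, 62 and 68 and DEX mice 6, 34 and 56 (adjusted p 0.103 to 0.177). With the 3 libraries that stood apart left out, Htr1a did not pass (adjusted p = 0.262), so that no serotonin receptor gene was called by limma, and 1 gene of the adrenergic, dopamine and histamine list was.

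In the list of 20 neurotrophin and stress peptide genes, 2 fell and none rose. Besides Bdnf this was Crhr1, the receptor of corticotropin-releasing hormone, with 975, 867, 844 and 905 in the saline animals and 598, 807, 613 and 668 in the DEX animals (-0.43 ± 0.09 (SE), adjusted p = 0.00595, limma). The hormone itself, Crh, did not pass (adjusted p = 0.997). Of 36 glutamate and GABA receptor subunits, 1 rose and 4 fell, all by less than 0.5 on the log2 scale. The delta subunit Gabrd of extrasynaptic GABA receptors had 1837, 2219, 2079.8 and 1955 in the saline animals and 1422, 1778, 1587 and 1620.3 in the DEX animals (-0.34 ± 0.09 (SE), adjusted p = 0.0268), lost without DEX mouse 6 (0.119) or saline mouse 28 (0.112). Gabrg1 fell by 0.35 and Gabra2 by 0.23, and the AMPA receptor subunit Gria1 rose by 0.22. These calls were lost in turn, for Gabrg1 without any 1 of saline mice 2 and 28 and DEX mice 6, 34 and 56 (adjusted p 0.102 to 0.234), for Gabra2 without any 1 of saline mice 2, 28 and 68 and DEX mice 6 and 52 (adjusted p 0.129 to 0.244), and for Gria1 without any 1 of saline mice 28, 62 and 68 and DEX mice 6, 34 and 52 (adjusted p 0.108 to 0.224). Without DEX mouse 6 no member of this list was called by limma. With the 3 libraries that stood apart left out, 2 receptor subunits and 2 neurotrophin and stress peptide genes were called.

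Potassium channel subunits changed in 6 of 40 genes, 3 up and 3 down. Kcnn2, which encodes the small-conductance calcium-activated channel SK2, had 818, 796, 881 and 909 in the saline animals and 1242, 1165, 1133 and 1141 in the DEX animals (0.46 ± 0.07 (SE), adjusted p = 1.04e-04, limma), and Kcnn3, which encodes SK3, had 573, 559.6, 568 and 589.7 in the saline animals and 413, 297, 364 and 384 in the DEX animals (-0.66 ± 0.15 (SE), adjusted p = 0.0106). The 2 related channels thus moved in opposite directions in all DEX animals. The voltage-gated Kcna5 rose from 72.6, 44.9, 65.2 and 37.8 to 84.5, 136, 89.8 and 119.7 (adjusted p = 0.00905) and the leak channel Kcnk1 by 0.33 (adjusted p = 0.00501). Without the 3 libraries that stood apart, Kcnn3 had a log2 fold change of -0.57 (adjusted p = 0.243) and 2 of the 40 genes were called. None of 27 GABAergic neuron markers was called by limma, edgeR or DESeq2, with 1 at an unadjusted p under 0.05 in limma. In bulk tissue, fewer cells of a type and less RNA per cell cannot be told apart, which holds for all markers of cell types below. Of the pyramidal neuron markers, 1 of 19 rose, so that 5.26% were called against 5.36% of all genes. This was the transcription factor Bcl11b (0.60, adjusted p = 0.0714), a call lost without any 1 of saline mice 2, 28, 62 and 68 and DEX mice 6, 34 and 52 (adjusted p 0.113 to 0.169) and without the 3 libraries that stood apart (adjusted p = 0.541).

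Of 24 astrocyte markers, 5 rose and 1 fell (25.0% called against 5.36% of all genes). Plcd4, a phospholipase C, had 322, 337, 309.5 and 307 in the saline animals and 592, 552, 509 and 531 in the DEX animals (0.77 ± 0.10 (SE), adjusted p = 3.34e-05, limma). The fibroblast growth factor receptor Fgfr3 rose by 0.41, the transsulfuration enzyme Cbs by 0.55, the gap junction protein Gjb6 by 0.55 and the folate enzyme Aldh1l1 by 0.34. Aqp4, the water channel of astrocyte endfeet, went the other way, from 3687, 3286, 3031 and 3092 to 2275, 2089.8, 2375 and 2284 (-0.53 ± 0.09 (SE), adjusted p = 4.60e-04). The median log2 fold change of the list was -0.02, and its summed level was 173819 to 195474 normalized counts with saline and 170024 to 180453 with DEX. Its 6 calls were 6 without any 1 of the 8 PS libraries and 4 without the 3 that stood apart. In the oligodendrocyte lineage, 1 of 24 markers fell, so that 4.17% were called against 5.36% of all genes. Aspa, which breaks down N-acetylaspartate, had 164, 193, 228 and 176 in the saline animals and 127, 97.4, 129.9 and 123 in the DEX animals (-0.67 ± 0.16 (SE), adjusted p = 0.0156). Aspa did not pass without the 3 libraries that stood apart (adjusted p = 0.323).

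Interferon-response genes were lower after DEX. Of the 25 tested from a list of 45, 9 fell and none rose, which is 36.0% against 2.62% of all genes that fell, and the median log2 fold change was -0.42. Gbp2 and Gbp3, guanylate-binding GTPases induced by interferon, stood first. Gbp2 (chr3:142620602-142638008) had 183, 79.1, 139 and 92.5 normalized counts in the saline animals and 40.4, 12.9, 35.2 and 53.3 in the DEX animals, a log2 fold change of -1.85 ± 0.34 (SE), adjusted p = 0.00137 (limma). Gbp3 had 185, 109, 141 and 158 in the saline animals and 62.5, 46.5, 55.8 and 89.2 in the DEX animals (-1.22 ± 0.21 (SE), adjusted p = 5.66e-04). In both genes DEX mouse 34 was the lowest and DEX mouse 56 the highest of the DEX animals, and the groups did not overlap. Ifit3b, a member of the IFIT family that binds viral RNA, had 189.8, 135, 159.9 and 139.8 in the saline animals and 75.9, 78.4, 87.4 and 83.8 in the DEX animals (-0.92 ± 0.13 (SE), adjusted p = 5.28e-05). Its near copy Ifit3 fell by 0.85, and reads that fit both genes cannot be assigned with certainty. Irgm2, Gbp7, Ifitm3 and Igtp fell by 0.49 to 0.71. The call was lost for Ifit3 without DEX mouse 34 (0.106) or saline mouse 2 (0.123). It was lost for Irgm2 without DEX mouse 34 (0.134), DEX mouse 6 (0.115) or saline mouse 2 (0.129), for Gbp7 without DEX mouse 34 (0.142), for Ifitm3 without DEX mouse 34 (0.318), saline mouse 2 (0.318) or saline mouse 62 (0.168), and for Igtp without any 1 of saline mice 2, 62 and 68, DEX mice 6, 52 and 56, saline control mice 106, 107 and 109, DEX control mice 108, 112 and 122, saline AS mice 8 and 14 and DEX AS mouse 42 (adjusted p 0.102 to 0.35). Isg15, a ubiquitin-like modifier, had 71.4, 31.3, 58.8 and 50.5 in the saline animals and 15.9, 17.2, 17.0 and 42.4 in the DEX animals, with DEX mouse 56 inside the saline range, and its call (-1.23 ± 0.36 (SE), adjusted p = 0.0545) did not pass in edgeR (adjusted p = 0.101) and was lost without any 1 of saline mice 2, 62 and 68 and DEX mice 6, 34 and 52 (adjusted p 0.102 to 0.198). The number of calls in the list was 4 without saline mouse 2, 5 without DEX mouse 34, 6 without DEX mouse 6 and 2 without the 3 libraries that stood apart. In that last comparison Gbp2 did not pass (adjusted p = 0.174), and the log2 fold change was -0.94 for Gbp3 (adjusted p = 0.0763) and -0.73 for Ifit3b (adjusted p = 0.0154).

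Promoter sequence was read for the named genes from RefSeq start sites (GRCm38.p6), over the 250 bases before each start. The inner part of the glucocorticoid response element was searched as ACANNNTGT, which reads the same on both strands, and the inner part of the interferon-stimulated response element as GAAANNGAA on both strands. Over all windows of the genes tested, 3.63% held the first and 5.77% the second. Windows were at hand for 306 of the 386 genes that rose and 279 of the 369 that fell, under 80% of each, so that a comparison of shares is void. Of the 101 genes that the naming rule chose and that passed the test, 70 had a window. Of these, counted over all windows of a gene and not per window as above, 7 held the first motif and 12 the second. The 6 of these with the largest changes are shown with the matches in capitals, whole where no annotated exon overlapped the window and as 30 bases around the match elsewhere.
Lcn2 (chr2:32387872-32387901, minus strand): aagtatttcaACAGAATGTactggcaatta
Gbp2 (chr3:142620595-142620624, plus strand): ctcttttagtTTCACTTTCactgtcttaag
Map3k6 (chr4:133240568-133240817, plus strand): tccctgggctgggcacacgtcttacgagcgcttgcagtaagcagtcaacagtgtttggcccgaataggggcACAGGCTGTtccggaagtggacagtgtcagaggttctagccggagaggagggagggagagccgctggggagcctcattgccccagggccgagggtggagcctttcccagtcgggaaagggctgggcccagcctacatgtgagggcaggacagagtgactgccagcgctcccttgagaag
Mfsd2a (chr4:122961361-122961390, minus strand): agcctgggacTTCAGTTTCctcgggcgagt
Isg15 (chr4:156200819-156201068, minus strand): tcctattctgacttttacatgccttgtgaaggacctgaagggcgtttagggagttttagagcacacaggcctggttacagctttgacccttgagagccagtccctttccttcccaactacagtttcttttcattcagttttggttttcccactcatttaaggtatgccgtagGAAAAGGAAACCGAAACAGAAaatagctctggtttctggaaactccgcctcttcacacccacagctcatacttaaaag
Gbp3 (chr3:142559993-142560022, plus strand): acacagtTTCAGTTTCTATTTCccagatcc
Lcn2 and Map3k6, which rose, held the first motif, at positions -152 and -179 before the start. Of the genes not shown, Kcna5, Sgk1 and Mt1, which rose, and Fam181a and Bdnf, which fell, held it too. Gbp2, Gbp3 and Isg15, which fell, held the second motif, once in Gbp2 and in overlapping copies in the other 2. Mfsd2a, which rose, also held the second motif. Of the genes not shown, so did Sgk1 and Nfkbia, which rose, and Ifit3b, Aif1, Slco1c1, Bdnf, Akt2 and Gabrg1, which fell. No match of either motif was found in the windows of Plin4, Tekt4 or Fkbp5. A match is a run of letters and was not tested as a binding site.

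Genes of antigen presentation fell as well. Of 6 MHC class II genes tested, 4 fell (66.7% called against 5.36% of all genes) and all 6 were lower in the mean, with a median log2 fold change of -0.98. Cd74, the invariant chain, had 309.6, 228, 357 and 185 in the saline animals and 135, 89.6, 114 and 156 in the DEX animals (-1.10 ± 0.25 (SE), adjusted p = 0.0114, limma). H2-Aa had 109.6, 86.6, 141 and 57.8 in the saline animals and 49.0, 27.6, 41.3 and 43.5 in the DEX animals (-1.23 ± 0.28 (SE), adjusted p = 0.0119) and H2-Ab1 had 103, 62.2, 119 and 47.3 in the saline animals and 40.4, 21.5, 32.8 and 42.4 in the DEX animals (-1.20 ± 0.29 (SE), adjusted p = 0.0156). In these 3 genes saline mice 2 and 62 were the highest and DEX mouse 34 the lowest of the 8 animals. H2-Eb1 fell by 0.85, a call (adjusted p = 0.0584) lost without any 1 of saline mice 2 and 62 and DEX mice 6, 34 and 52 (adjusted p 0.116 to 0.249). In class I and peptide loading, 5 of 13 genes fell and none rose. Tapbp, the tapasin that loads peptides, had 1003, 865, 948 and 801 in the saline animals and 647, 662, 694 and 671 in the DEX animals (-0.43 ± 0.08 (SE), adjusted p = 0.00174). The peptide transporter subunit Tap2 fell by 0.59 (adjusted p = 0.0114). H2-Q4 and H2-K1, heavy chains of a family with near-identical members, fell by 0.80 and 0.47 with adjusted p = 0.0491 and 0.0977. The call of H2-Q4 was lost without any 1 of saline mice 2 and 62 and DEX mice 6, 34 and 52 (adjusted p 0.133 to 0.189). That of H2-K1 was lost without any 1 of saline mice 2, 28 and 62, DEX mice 6, 34 and 52, saline control mice 107 and 109, DEX control mice 108, 112 and 122, saline AS mice 8 and 14 and DEX AS mice 38 and 72 (adjusted p 0.101 to 0.304). H2-D1, the last of the 5, fell by 0.35 (adjusted p = 0.0643), a call lost without any 1 of saline mice 2 and 62 and DEX mice 6, 34 and 52 (adjusted p 0.121 to 0.258). Limma called none of the 13 class I genes without the 3 libraries that stood apart, with adjusted p = 0.181 for Tapbp and 0.427 for Tap2.

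Markers of the leptomeninges also varied between the animals. The summed level of the 16 leptomeningeal fibroblast markers was 48845, 34846, 55961 and 22625 normalized counts in the saline animals and 28352, 19732, 29024 and 53553 in the DEX animals, and none of the 16 was at 0 in any library. None of the 16 was called by limma or edgeR and 1 by DESeq2, with 8 at an unadjusted p under 0.05 in limma, and all had a negative log2 fold change, with a median of -0.55. Leaving out DEX mouse 56 or saline mouse 68 gave 8 and 5 calls. Border macrophages, which express class II genes, live in this tissue. Their 6 markers tested summed to 2651, 2367, 2635 and 2094 with saline and 2089, 1691, 2114 and 2552 with DEX. Among them Pf4, a chemokine, had 35.7, 28.1, 47.3 and 22.1 in the saline animals and 8.57, 7.76, 4.86 and 13.1 in the DEX animals (-1.86 ± 0.44 (SE), adjusted p = 0.0141, limma), the largest of the 15 falls, whereas Lyve1, a hyaluronan receptor, rose from 54.8, 35.1, 39.7 and 31.5 to 56.3, 63.8, 58.3 and 91.4 (0.73 ± 0.20 (SE), adjusted p = 0.0343), a call lost without DEX mouse 56 (0.135), saline mouse 28 (0.109) or saline mouse 68 (0.121). Without saline mice 2 and 62 and DEX mouse 34 the median of the leptomeningeal list was 0.09, that of class II -0.47 with 0 of 6 called, and that of the interferon list -0.21. Pf4 then had a log2 fold change of -1.49 (adjusted p = 0.398) and Cd74 one of -0.62 (adjusted p = 0.656), and 1 border macrophage marker was called. The part of leptomeningeal tissue in the falls of class II and interferon genes was not tested.

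**Figure D3:**
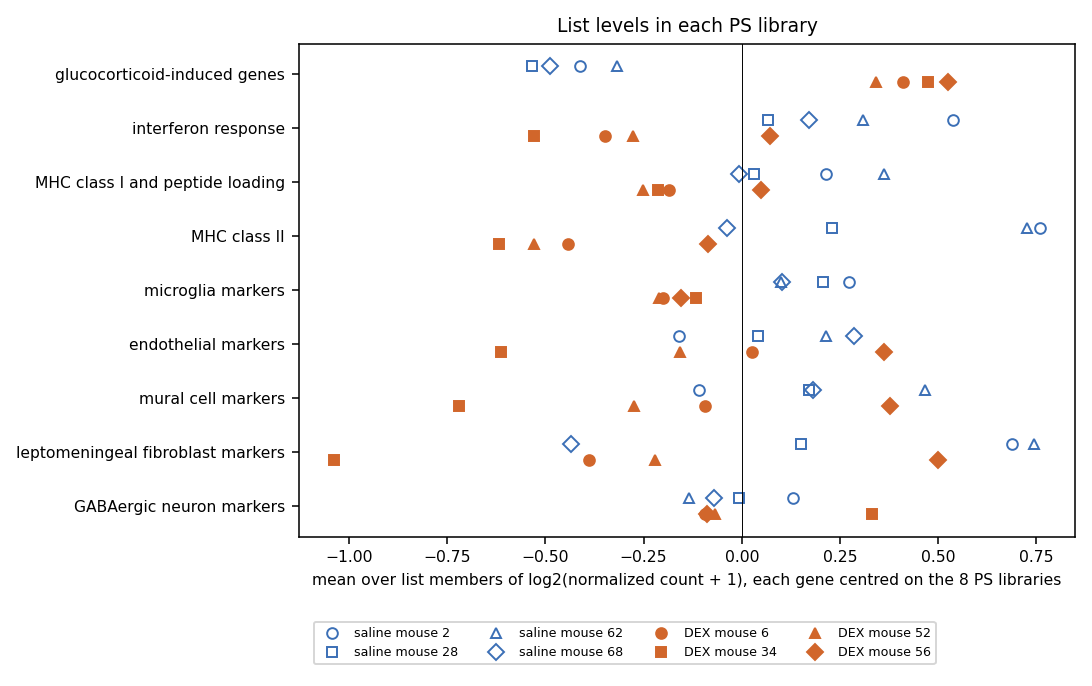
Level of 9 gene lists in each of the 8 PS libraries, as the mean over members of log2(normalized count + 1) after centring each gene on the 8 libraries. Glucocorticoid-induced genes and microglia markers separate DEX (filled) from saline (open) animals, while leptomeningeal, mural and endothelial lists put DEX mouse 34 lowest and overlap between treatments.

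Microglia markers fell in part, and about as many were called without the libraries that stood apart. Of 22 markers, 7 fell and none rose (31.8% called against 5.36% of all genes), with a median log2 fold change of -0.34. P2ry12, the purinergic receptor that guides microglial processes (chr3:59216272-59262871), had 1195, 1163, 1048 and 1076 normalized counts in the saline animals and 674, 660.1, 725 and 720.4 in the DEX animals, a log2 fold change of -0.69 ± 0.07 (SE), adjusted p = 5.55e-07 (limma). Cx3cr1, the fractalkine receptor, had 1354, 1468, 1251 and 1380.2 in the saline animals and 676, 699.7, 851 and 851 in the DEX animals (-0.83 ± 0.11 (SE), adjusted p = 2.81e-05). Gpr34, a lysophosphatidylserine receptor, had 350.4, 332, 304 and 321 in the saline animals and 185, 184, 242 and 172 in the DEX animals (-0.75 ± 0.12 (SE), adjusted p = 2.07e-04). These are surface receptors of resting microglia, and for each the 4 DEX animals lay well below the 4 saline animals. Fcrls, P2ry13 and Siglech, also surface proteins, fell by 0.62, 0.55 and 0.53. Aif1, the calcium-binding protein Iba1, had 124, 124, 130.5 and 123 in the saline animals and 82.1, 63.8, 49.8 and 76.2 in the DEX animals (-0.90 ± 0.20 (SE), adjusted p = 0.00752).

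Other defining microglial genes did not pass. Csf1r, the receptor that keeps microglia alive, had 2821 ± 91.0 normalized counts (SD, n = 4) with saline and 2624 ± 75.7 with DEX (log2 fold change -0.10 ± 0.08 (SE), adjusted p = 0.651, limma). Tmem119, a membrane protein used to mark microglia, had a log2 fold change of 0.06 (adjusted p = 0.894). Of the 22 markers, 19 had a negative log2 fold change and 3, Tmem119 among them, a positive one. An unadjusted p under 0.05 was reached by 13 (limma). The summed level of all 22 markers was 16043 to 17803 normalized counts with saline and 13674 to 14658 with DEX, with no overlap and no marker at 0. Without any 1 of the 8 PS libraries 7 or 8 of the 22 were called, and 6 without the 3 libraries that stood apart, where P2ry12 had -0.66 (adjusted p = 1.81e-04) and Cx3cr1 had -0.85 (adjusted p = 0.00216). Among 14 complement genes 1 fell, so that 7.14% were called against 5.36% of all genes. This was Itgam, the alpha chain of complement receptor 3, which microglia carry, with 199, 201, 173 and 219.7 in the saline animals and 126, 128, 114 and 145 in the DEX animals (-0.62 ± 0.14 (SE), adjusted p = 0.0101). Of 16 NF-kappaB and adhesion targets, 1 rose and 1 fell (12.5% called against 5.36% of all genes). Nfkbia, the inhibitor IkappaB-alpha, had 455, 451, 592 and 482 in the saline animals and 681, 772, 556 and 813 in the DEX animals (0.50 ± 0.12 (SE), adjusted p = 0.011). Icam2 fell by 1.03 with adjusted p = 0.0915, a call that did not pass in edgeR (adjusted p = 0.118) and was lost without any 1 of saline mice 2, 28 and 62, DEX mice 34 and 52, saline control mouse 107, DEX control mice 108 and 112, saline AS mice 8 and 40 and DEX AS mice 38 and 72 (adjusted p 0.101 to 0.281). A total of 1 complement gene and 1 NF-kappaB or adhesion target were called without the 3 libraries that stood apart.

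Genes of blood vessels moved both ways. Of 27 endothelial markers, 2 rose and 3 fell, with a median log2 fold change of -0.29. Mfsd2a, the lipid transporter of the blood-brain barrier (chr4:122946850-122961188), had 456, 355, 371 and 552 in the saline animals and 1044, 1109.9, 935 and 1075 in the DEX animals (1.28 ± 0.13 (SE), adjusted p = 6.15e-07, limma). The glucose transporter Slc2a1 rose by 0.44 (adjusted p = 0.059), a call lost without any 1 of saline mice 2 and 28 and DEX mice 6 and 56 (adjusted p 0.15 to 0.224). Slco1c1, a thyroxine transporter of the barrier, had 1134, 1353, 1167 and 1553 in the saline animals and 922, 666, 880.2 and 1053 in the DEX animals (-0.57 ± 0.14 (SE), adjusted p = 0.0191). Defining markers such as Cldn5 and Pecam1 had log2 fold changes of 0.05 and -0.35 and did not pass (adjusted p = 0.964 and 0.599). Tek, the angiopoietin receptor, and Itm2a fell by 0.78 and 0.52. The call of Itm2a was lost without any 1 of saline mice 2, 62 and 68 and DEX mice 34 and 52 (adjusted p 0.109 to 0.252). That of Tek did not pass in edgeR (adjusted p = 0.133), on thinned reads (0.141), with only the groups compared (0.208) or after quantile normalization (0.106). It was also lost without any 1 of saline mice 28, 62 and 68, DEX mice 34 and 52, saline control mice 106, 107 and 109, DEX control mice 108, 112 and 122, saline AS mouse 8 and DEX AS mice 38 and 42 (adjusted p 0.102 to 0.365). Gkn3, a marker of arterial walls, was the only one called of the 13 genes tested from the mural list. It had 49.7, 76.7, 109 and 68.3 in the saline animals and 25.7, 18.1, 30.4 and 31.6 in the DEX animals (-1.46 ± 0.25 (SE), adjusted p = 5.90e-04). Bulk tissue does not tell which cells of the wall carry it. The share of the mural list called was thus 7.69%, against 5.36% of all genes, and rests on Gkn3 alone.

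The summed level of the endothelial markers was 18394, 20587, 22723 and 24141 normalized counts with saline and 20856, 16179, 19485 and 25423 with DEX, and that of the mural markers 5999, 6531, 7789.8 and 7343 and 5837, 3962, 5127 and 7834. DEX mouse 34 was lowest and DEX mouse 56 highest in both, and no marker was at 0. The part of vessel content in the falls of vascular genes was not tested. Further vascular genes among the 15 largest falls were Slc38a5, an amino acid transporter of the barrier (39.5, 55.7, 43.5 and 74.6 in the saline animals and 31.8, 19.8, 13.4 and 19.6 in the DEX animals), and Mmrn2, an extracellular protein of endothelium (99.4, 153, 188 and 144 in the saline animals and 85.7, 56.9, 64.3 and 97.9 in the DEX animals). Their log2 fold changes were -1.31 ± 0.31 and -0.93 ± 0.25 (adjusted p = 0.0121 and 0.0323, limma), and the call of Mmrn2 was lost without DEX mouse 34 (0.119) or saline mouse 62 (0.129). Of 39 genes of extracellular matrix and integrins, 1 rose and 3 fell (10.3% called against 5.36% of all genes). The protease Adamts1 had 229, 273, 196 and 244 in the saline animals and 151, 117, 166 and 182 in the DEX animals (-0.62 ± 0.13 (SE), adjusted p = 0.00688) and the integrin Itga6 had 651, 651, 622 and 765 in the saline animals and 496, 344, 524 and 468 in the DEX animals (-0.57 ± 0.12 (SE), adjusted p = 0.00784). The laminin Lama4 fell by 0.51 and the inhibitor Timp4 rose by 0.33, with calls lost without DEX mouse 34 (0.179), DEX mouse 6 (0.13) or saline mouse 62 (0.186) for Lama4 and without any 1 of saline mice 2, 28, 62 and 68, DEX mice 6 and 34, saline control mouse 109, DEX control mouse 122 and saline AS mouse 40 (adjusted p 0.102 to 0.243) for Timp4. Of 16 genes of the VEGF and angiopoietin families, 3 fell. Besides Tek these were Nrp2, a semaphorin and VEGF coreceptor, with 945, 946, 939 and 943 in the saline animals and 610.0, 733, 654 and 740.0 in the DEX animals (-0.47 ± 0.12 (SE), adjusted p = 0.0244), and the ligand Vegfc (-0.37), lost without any 1 of saline mice 2, 28 and 68 and DEX mice 6, 34 and 52 (adjusted p 0.146 to 0.227). Without the 3 libraries that stood apart, 2 endothelial, 1 mural, 2 matrix and 1 VEGF family gene were called, and Mmrn2 had adjusted p = 0.258. The 1 VEGF family gene was none of the 3 named, as Tek, Nrp2 and Vegfc then had adjusted p = 0.341, 0.187 and 0.247 (limma).

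The other genes among the 15 largest falls belong to no list. All 15 falls were also called in AS animals and 3 of them in controls, where all 15 had a negative log2 fold change. Serpinb1a, an inhibitor of neutrophil proteases, had 67.5, 83.8, 64.0 and 46.3 in the saline animals and 35.5, 37.1, 21.9 and 19.6 in the DEX animals (-1.19 ± 0.24 (SE), adjusted p = 0.00349, limma). Fam181a had 49.7, 50.5, 42.2 and 45.2 in the saline animals and 18.4, 20.7, 23.1 and 27.2 in the DEX animals (-1.05 ± 0.20 (SE), adjusted p = 0.0025), with little spread in either group. The noncoding Gm10790 had 67.5, 61.3, 57.6 and 61.0 in the saline animals and 34.3, 31.0, 32.8 and 28.3 in the DEX animals (-0.95 ± 0.18 (SE), adjusted p = 0.0021). Gm266 fell by 0.97 and the planar polarity cadherin Celsr1 by 0.95 (adjusted p = 0.0148 and 0.0315), the call of Celsr1 being lost without DEX mouse 34 (0.124) or saline mouse 2 (0.111). Gm266 and Celsr1 had adjusted p = 0.302 and 0.743 without the 3 libraries that stood apart. Besides the GABAergic markers, 3 lists had no member called in the main limma fit, in edgeR or in DESeq2. These were 82 cytosolic ribosomal protein genes (median log2 fold change -0.03), 31 mitochondrially encoded genes (-0.16) and 5 blood cell genes (-0.80), with 1, 3 and 3 members at an unadjusted p under 0.05 in limma. Over the alternatives, the highest number called was 0, 1 and 4 in the same order, so the blood cell list was open to the setting. The blood cell genes summed to 2001 to 2746 normalized counts with saline and 1123 to 1719 with DEX, so that each DEX library was lower than each saline library. The part of residual blood in the falls of immune genes was not tested.

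**Figure D4:**
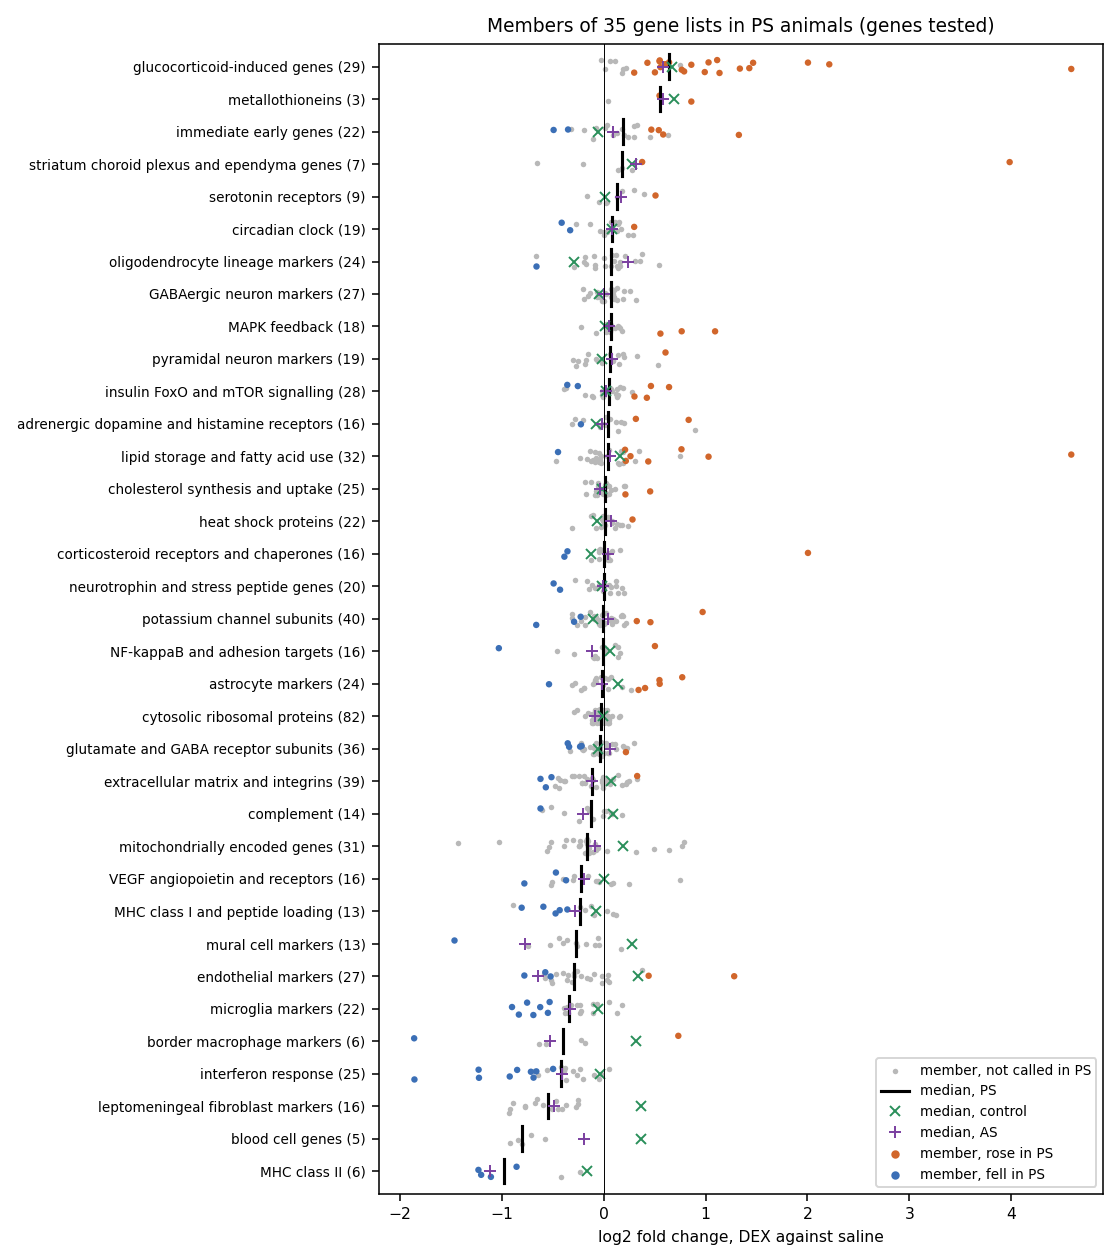
Log2 fold change of DEX against saline for the members of 35 gene lists in PS animals (number of genes tested in brackets). Each point is a gene, orange if it rose and blue if it fell in PS animals. The black bar is the PS median, the cross the control median and the plus the AS median. Glucocorticoid-induced genes have the highest PS median (0.64) and MHC class II the lowest (-0.98).

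The response of PS animals was set beside those of control and AS animals, whose fold changes rest on other libraries. The spread of each gene was estimated over all 24 libraries together. Calls of the same gene in several groups are therefore not independent. In control animals 913 genes were called (6.49%) and in AS animals 1234 (8.77%). Of the 755 PS genes, 346 were also called in controls, 45.8% of the PS genes and 37.9% of the control genes, and all but 2 of them in the same direction. With AS animals 517 genes were shared, 68.5% of the PS and 41.9% of the AS genes, all in the same direction. The sign of the change in AS animals was that of PS animals for 98.3% of the 755 genes, against 67.0% of all genes. In control animals it was so for 89.1%, against 52.9% of all genes. Over 14074 genes, which are not independent of each other, Pearson's r of the PS log2 fold change was 0.31 with that of controls and 0.60 with that of AS animals. Leaving out 1 PS library at a time moved r between 0.24 and 0.34 with controls, and between 0.53 and 0.61 with AS animals.

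Most genes that responded in both other groups were called in PS animals too. Of 236 genes that rose in controls and in AS animals, 194 rose in PS animals and all 236 had a positive log2 fold change, with medians of 0.47 in PS, 0.55 in control and 0.52 in AS animals. Of 106 that fell in both, 81 fell in PS animals and 105 had a negative log2 fold change, with medians of -0.45, -0.44 and -0.47. Chrm4, a muscarinic receptor, was the exception, at 0.03 in PS animals, and is named for that reason after its value was seen. For the genes that fell in PS animals the groups were less alike in size. Their median was -0.47 in PS animals, which chose them, -0.18 in controls and -0.45 in AS animals. For the genes that rose it was 0.44, 0.37 and 0.37.

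**Figure D5:**
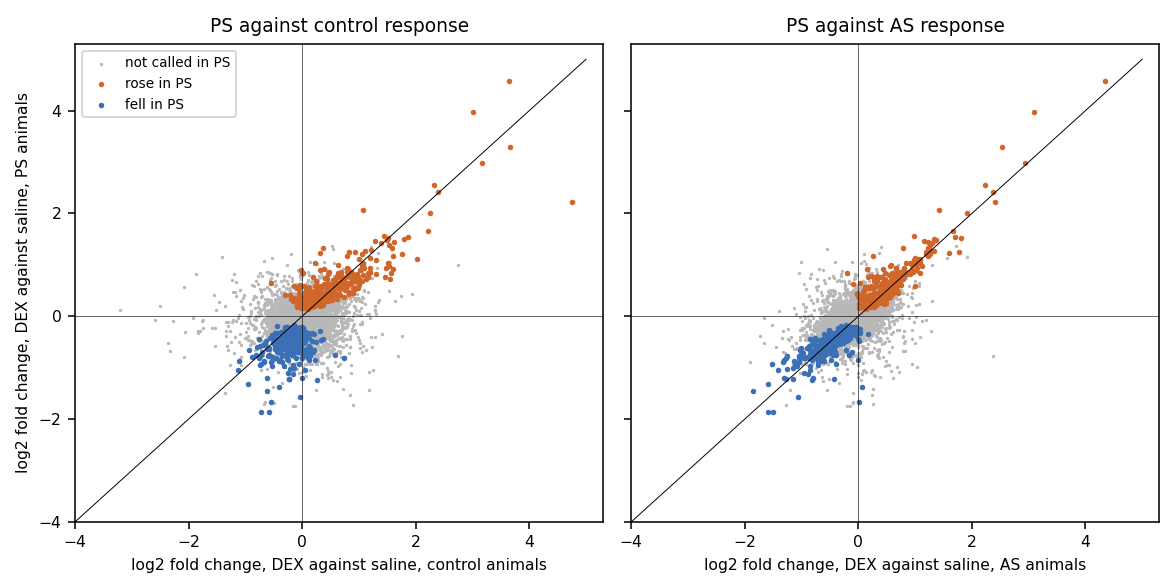
Log2 fold change of DEX against saline in PS animals (vertical axis) against that in control animals (left) and AS animals (right), for 14074 genes. Genes that rose in PS animals are orange and those that fell blue, and the diagonal marks equal responses. The sign is shared by 89.1% of the 755 called genes with controls and by 98.3% with AS animals.

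By gene, the glucocorticoid-induced list had medians of 0.64 in PS, 0.67 in control and 0.58 in AS animals, with 21 members called up in PS, 21 in control and 19 in AS animals. Plin4 rose by 4.59 in PS animals and by 3.65 in control and 4.34 in AS animals, and Fkbp5 by 2.00 and by 2.26 in control and 1.91 in AS animals. The interferon list had medians of -0.42, -0.04 and -0.41, the class II list -0.98, -0.17 and -1.12, and the microglia list -0.34, -0.05 and -0.33, in the same order. The vascular and meningeal lists had negative medians in both stressed groups and positive medians in controls. They were -0.29, 0.34 and -0.65 for endothelium, -0.27, 0.28 and -0.77 for mural cells, and -0.55, 0.37 and -0.49 for leptomeninges. The PS medians moved with single libraries. Without DEX mouse 34 they were -0.08, -0.14 and -0.38, and without the 3 libraries that stood apart -0.13, -0.06 and 0.09. The part of tissue content in these differences was not tested. Among single genes, Arc rose by 1.33 in PS animals and had log2 fold changes of 0.37 in control and 0.79 in AS animals. Htr1a rose by 0.51 (adjusted p = 0.262 without the 3 libraries that stood apart), against 0.13 in control and 0.69 in AS animals, and Cx3cr1 fell by 0.83, against -0.27 in control and -0.73 in AS animals.

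With limma, no gene passed the test of the difference itself. For the PS response minus the control response, limma and edgeR called 0 genes, DESeq2 called 23, and limma gave 1404 genes an unadjusted p under 0.05. For PS minus AS, all 3 tools called 0, with 344 genes at an unadjusted p under 0.05. The median SE of a difference was 0.14 on the log2 scale, against 0.10 for the PS response itself, which limits what 4 animals per group can show. The genes with the lowest p for PS minus control were Mybpc1, Gm8129 and 2900052N01Rik. Mybpc1, a myosin-binding protein, had a log2 fold change of 0.41 in PS animals and -0.30 in controls, a difference of 0.71 ± 0.13 (SE) with adjusted p = 0.112. Gm8129, a processed pseudogene, had -0.08 and -1.75, a difference of 1.67 ± 0.31 (SE). The noncoding 2900052N01Rik had -0.29 and 0.32, a difference of -0.61 ± 0.12 (SE), each with adjusted p = 0.112. None of the 3 passed. For PS minus AS the lowest p belonged to Eif5b, a translation initiation factor (-0.30 ± 0.08 (SE)), the LIM protein gene Lmo3 (-0.43 ± 0.12 (SE)) and the noncoding Gm9828 (-0.52 ± 0.15 (SE)), all with adjusted p = 0.9997. The difference between PS and control was 0.96 ± 0.29 (SE) for Arc (adjusted p = 0.367), -0.86 ± 0.36 (SE) for Cd74 (adjusted p = 0.434), -0.56 ± 0.15 (SE) for Cx3cr1 (adjusted p = 0.294) and -0.26 ± 0.15 (SE) for Fkbp5 (adjusted p = 0.592). These gene responses were thus not shown to differ between PS and control animals, nor shown to be equal.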

How the data were processed

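RNA of the PFC was sequenced from 24 mice, 4 in each of 6 groups. Per the labels and the methods, libraries were poly(A)-selected and strand-specific, and the authors trimmed paired reads with fastp 0.20.1, aligned them to mm10 with HISAT2 2.2.1, counted genes with featureCounts (Subread 2.0) and scaled counts by the size factors of DESeq2 1.36.0. The deposited table of counts holds a signal in units of size-factor-scaled reads, and other deposited tables hold gene positions and the authors' own fold changes and p-values, of which the last 2 were not used. Each value is a whole number of reads divided by a size factor, and whole reads were recovered for 100.0% of values within 0.01 of a read. A filter of at least 10 reads in each library is stated, but 913 of the 14074 genes are below it in some library, and all were kept.

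Log2(normalized count + 1) was fitted with limma 3.58.1 (R 4.3.3), with 1 mean for each of 6 groups over the 24 libraries, an intensity trend and Benjamini-Hochberg adjustment over 14074 genes, and an adjusted p under 0.1 was called. Fold changes on this scale understate the change of low genes. edgeR 4.0.16 and DESeq2 1.42.0 on recovered reads, another pseudocount, filters, scaling, thinned reads and each library left out were alternatives. The fit was tested on simulated counts with 200 changed genes among 14074. There limma recovered 74.0% of changes of 0.5 and 97.0% of changes of 1 on the log2 scale in the simulated PS groups. Of its calls, 10.5% were false. These rates belong to the simulation, and whether they hold for the PS libraries, some of which stood apart, was not tested. Depth was 21121869 to 59439645 reads. The smallest pairwise chi-square between PS replicates was 8.80 per gene, so no pair was the same library deposited again. Mouse numbers do not recur across groups, so no animals were paired.

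The comparison and the gene lists were chosen with earlier results of these data known. Named were the 15 largest called rises and falls with non-overlapping groups and a mean of at least 20 normalized counts, up to 4 called genes of each list with the largest log2 fold change in size, Fkbp5, Tsc22d3, Sgk1, Per1, Nr3c1 and Nr3c2 whatever their value, and the 3 genes with the lowest p in each test between groups. Further members of the lists, and defining markers that did not pass, were added after their values were seen. Some genes are not reported here. Promoter windows are from RefSeq (GRCm38.p6), and gene positions are those of the deposited tables, in mm10.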

Additional observations from a re-analysis of the deposited data

Results flagged for a closer look

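A total of 6 of 214 groups of 4 named-gene values had 1 library far from the other 3 by Dixon's test, where chance alone flags about 1 in 20 groups. Among saline animals, Tmem52 had 17.8 normalized counts in mouse 2 and 6.08 to 7.67 in the others, Pnpla2 had 517 in mouse 28 and 549.8 to 556 in the others, and Aif1 had 130.5 in mouse 62 and 123 to 124 in the others. Among DEX animals, Smim3 had 545 in mouse 34 and 425 to 444 in the others. DEX mouse 56 was set apart in 2 genes, with 42.4 of Isg15 against 15.9 to 17.2 and 174 of H2-Q4 against 75.8 to 83.8. No difference of the DEX response between PS and control or AS animals passed limma's test.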

How the results depend on the processing

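No paired analysis was possible because the mouse numbers do not recur across groups. The count of 755 genes called in PS animals was 694 to 903 under another pseudocount, filter, scaling, set of libraries in the fit, depth or tool. Leaving out 1 of the 24 libraries gave 509 to 871 calls, 291 to 443 rises and 218 to 428 falls, with the low end of the falls reached without saline mouse 2 (218), DEX mouse 6 (235) and saline mouse 28 (241). Leaving out saline mice 2 and 62 and DEX mouse 34 together, an alternative chosen after seeing the data, gave 318 calls, 187 up and 131 down. Fewer animals were then compared, and whether that alone lowers the count was not tested. The split of rises against falls went from 51.1% to 58.8% rises. Of the 101 genes that the naming rule chose and that passed, 50 were called under all 34 alternatives, none changed sign under any of them, and 45 were not called without those 3 libraries. Apart from left-out libraries and the edgeR and Tek values given above, calls were lost on thinned reads for Junb (0.133), Isg15 (0.225), Lyve1 (0.145), Vegfc (0.132), Bcl11b (0.136) and Maoa (0.112), with library size as a covariate for Junb (0.121), Timp4 (0.114), Gabra2 (0.106) and Gria1 (0.103), with only the groups compared for H2-Q4 (0.15), Icam2 (0.129), Vegfc (0.156) and Gabra2 (0.194), and after quantile normalization for Vegfc (0.148), all as adjusted p.

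In AS animals 1234 calls became 753 with only the AS libraries in the fit, 715 without DEX AS mouse 42, and 740, 1985 and 673 without saline AS mice 40, 44 and 8, with a range of 673 to 1985. The cause was not tested. In controls, leaving out 1 library gave 611 to 1032 calls. The 0 calls for PS minus control became 9 with a pseudocount of 8, 4 after quantile normalization, 1 with only the groups compared and 23 in DESeq2, and 0 to 3 with 1 library left out (3 without DEX PS mouse 56, 2 without DEX AS mouse 38 or DEX control mouse 112, 1 without saline control mouse 106). PS minus AS stayed at 0 in every alternative. Of the 342 genes called in the same direction in both other groups, 275 were called in PS animals, and 227 to 302 with 1 library left out. Saline mice 2 and 62 and DEX mouse 34 differed from the other PS animals in olfactory-type or short RNA genes, and whether their dissection or library preparation differed was not tested. The 4 animals per group limit the precision of every value.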

Other observations

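Lars2 was called after DEX although the groups overlapped, and it is named after its values were seen. Lars2, the mitochondrial leucyl-tRNA synthetase, had 51003, 7637, 28803 and 4808 normalized counts in saline mice 2, 28, 62 and 68 and 7753, 5890.1, 3317 and 3496 in DEX mice 6, 34, 52 and 56 (log2 fold change -1.67 ± 0.51 (SE), adjusted p = 0.0736, limma). The high values were those of saline mice 2 and 62, which also stood apart in the short RNA gene Gm24270. Gm42418, a long noncoding RNA gene, had 375806, 56422, 230884 and 29438 and 57537, 70589.8, 14843 and 22702 in the same order, with the same 2 saline animals on top (adjusted p = 0.162, limma).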
